A study of Mus musculus with 12 samples.

Results

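The 10 genes described here take fatty acids into cells, release them from lipoproteins, carry them in the cytosol or regulate such genes: Lpl, Vldlr, Cd36, Slc27a1, Slc27a2, Fabp1, Fabp2, Fabp4, Fabp5 and Pparg. They were chosen by name as genes of fatty acid uptake and binding, with earlier results of these data known. All 10 were found among 34607 names on the array, through 12 probes of 55681. RNA was measured on 1-colour Agilent arrays in whole liver of 12 mice, 4 in each of 3 groups. The first group were E2f1-/- mice, the second were mice labelled E2f2-/-, and the third were wild type mice of a 129/Sv x C57BL/6 background. Mice of all 3 groups, wild type included, are described as having received a single intraperitoneal dose of 25 mg/kg diethylnitrosamine, a liver carcinogen, on postnatal day 14. A high fat diet, with 60% of its calories as fat, followed for 32 weeks, and livers were taken at 9 months after a fast of 4 hours, so no group lacked the carcinogen or the diet. One label field of the 4 E2f1 knockout samples instead names vehicle and chow, against their titles, descriptions and other fields. If that field were right, treatment and genotype could not be told apart in any comparison with the E2f1 knockout. Neither the sex of the mice, nor the deleted part of each gene, nor whether deletion was limited to any cell type is stated in the sources used here.

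In a fed or fasting liver, fatty acids arrive bound to albumin or are split from circulating triglyceride by lipases at the vessel wall, and membrane proteins such as CD36 and the fatty acid transport proteins help to bring them into the cell. Inside, small binding proteins of the FABP family carry them to be burned, stored or exported. Healthy hepatocytes express FABP1 and the liver transport proteins strongly, while LPL, FABP4 and PPARG are known mainly from fat tissue and, for some of them, from macrophages, and rise in fatty liver.

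Values are log2 signals minus the array's own 75th percentile, so that a difference of 1 is a doubling, and the levels of different probes were not compared with each other. A gene was called changed where limma, fitted to all 20576 genes tested, gave a Benjamini-Hochberg adjusted p under 0.05; n = 4 mice in each group throughout, and ± after a change is its standard error. In E2f1 knockout livers 5 of the 10 genes changed against wild type, 2 higher (Slc27a2, Fabp1) and 3 lower (Lpl, Cd36, Pparg), beside 20.6% of all genes (13.2% higher, 7.43% lower). In livers labelled E2f2 knockout 7 changed, 3 higher (Slc27a1, Slc27a2, Fabp1) and 4 lower (Lpl, Cd36, Fabp4, Pparg), beside 22.0% of all genes (14.4% higher, 7.59% lower). An unadjusted p under 0.05 was found for 7 members in each of these comparisons, beside 33.7% and 36.2% of all genes. Both comparisons use the same 4 wild type livers, so the 5 genes called in both are not independent observations. Because the 10 genes were chosen with earlier results known, their counts beside the shares of all genes only describe them. None of the 10 genes passed between the E2f2-labelled and the E2f1 knockout livers, where 1.62% of all genes did (0.904% higher, 0.719% lower) and where 3 members had an unadjusted p under 0.05, beside 11.5% of all genes. The groups did not overlap for 4 members in the E2f1 comparison (21.2% of all genes) and for 6 in the E2f2 comparison (23.7%). Between the knockouts they did not overlap for 4 members (8.98%). The nearest values there, E2f2-labelled first, were 0.86 and 0.88 in Fabp4, 0.56 and 0.53 in Slc27a1 and 0.04 and 0.09 in Vldlr. For Lpl they were 0.79 and 1.06. All 10 genes had a probe well above background on all 12 arrays.

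**Figure D1:**
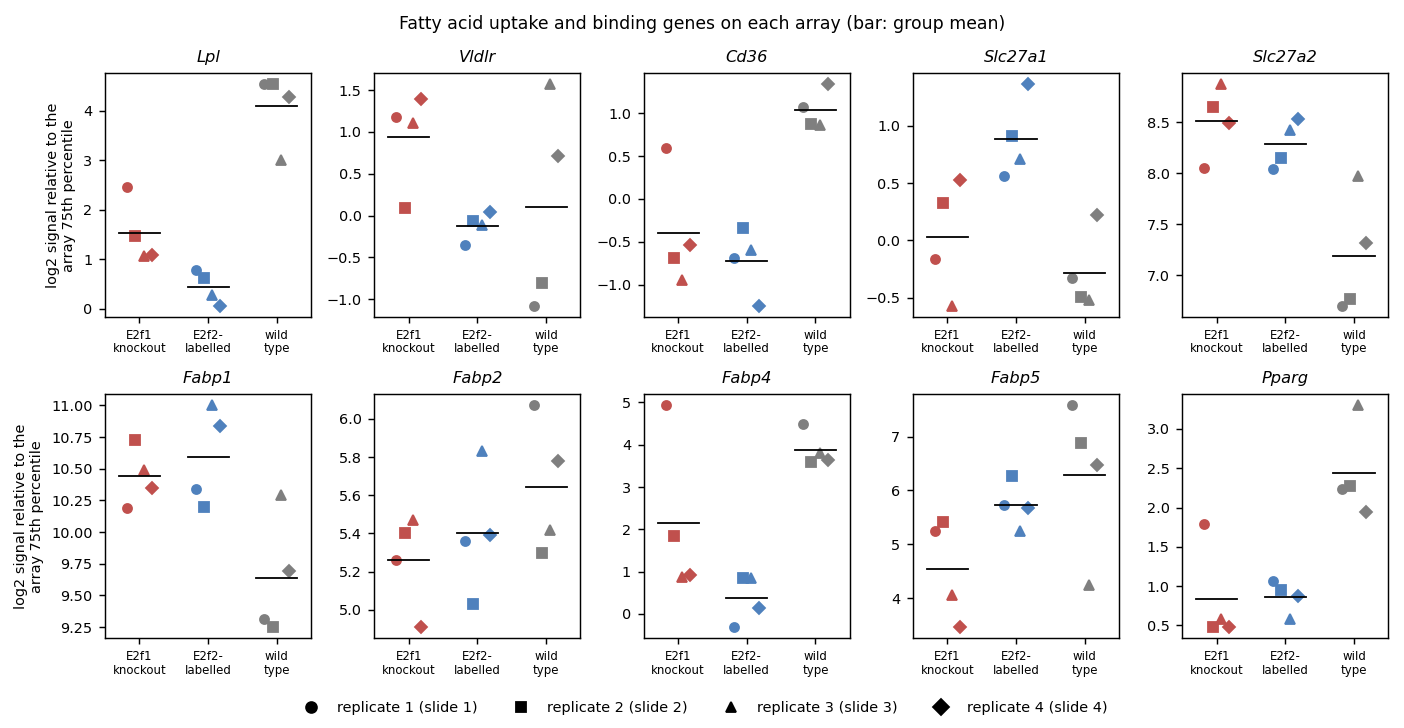
Signal of each of the 10 genes on every array, as log2 relative to the array's 75th percentile, by group, with a bar at the group mean; symbols give the replicate number, which is also the slide. Lpl, Cd36 and Pparg lie lower in every knockout liver than in any wild type liver, while Slc27a2 lies higher.

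The arrays themselves gave 3 facts that bear on what follows. E2f1 knockout replicate 1 had the highest signal of all 12 livers in 6 of 8 adipocyte markers, the exceptions being Car3 and Lep. Adipoq, the fat hormone adiponectin, stood at 1.37 there, against -5.46 to -4.47 in the other E2f1 knockout livers, at most -4.07 in E2f2-labelled livers and at most -5.24 in wild type livers, and only on that array was it well above background. Plin1, which coats fat droplets in adipocytes, was likewise at 0.49 there and at most -3.82 in any wild type liver. Each slide held 1 array of each group in the same position, which means that array position cannot be told apart from group, and differences within slides are given beside the tests. Last, the E2f1 probe fell in E2f1 knockout livers, at -0.75 ± 0.10 against 0.07 ± 0.31 in wild type livers (SD), with a change of -0.82 ± 0.19 and an adjusted p of 0.0108. The E2f2 probe averaged 0.55 ± 0.25 in the livers labelled E2f2 knockout and 0.81 ± 0.26 in wild type livers (adjusted p = 0.396), while it fell in E2f1 knockout livers, to -0.69 ± 0.37, a change of -1.50 ± 0.21 (adjusted p = 0.00136). Whether either probe lies in the deleted part is not given, and the group is therefore called by its label.

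**Figure D2:**
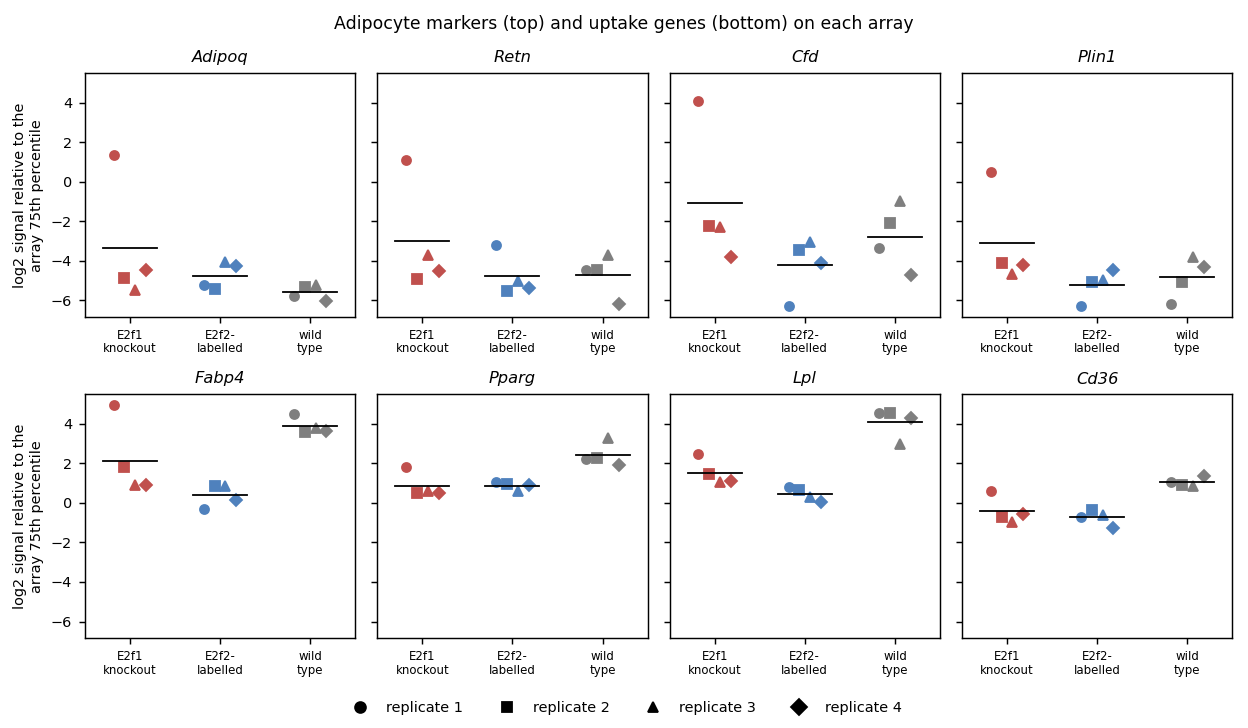
Signal of 4 of the 8 listed adipocyte markers (top) and of Fabp4, Pparg, Lpl and Cd36 (bottom) on every array. Values are log2 relative to the array's 75th percentile, with a bar at the group mean. E2f1 knockout replicate 1 (circle) stands above the other 11 livers in these 4 markers, and is the highest of its group in the genes below. Among the markers not shown, that liver was not the highest in Car3 or Lep.

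For 7 of the 10 genes RefSeq start sites gave 12 promoter windows of 250 bases upstream of the start (build GRCm38.p6); Lpl, Fabp4 and Fabp5 were not matched. The windows are shown for Fabp1 and Slc27a2, which were higher in both knockout groups, and for Cd36 and Pparg, which were lower. PPARG and its relative PPARA bind pairs of the half-site AGGTCA, and the windows were searched on both strands for it, for the direct repeat of AGGNCA and AGGTCA with 1 base between, and for the E2F core letters TTTGGCG or TTTCCCG. These motifs were chosen after the windows had been seen. Each window is written 5′ to 3′ on the strand of the gene, and capitals mark the half-sites or the direct repeat, which here read as the reverse complement, TGACCT, or directly.
Fabp1, chr6:71199629-71199878, plus strand: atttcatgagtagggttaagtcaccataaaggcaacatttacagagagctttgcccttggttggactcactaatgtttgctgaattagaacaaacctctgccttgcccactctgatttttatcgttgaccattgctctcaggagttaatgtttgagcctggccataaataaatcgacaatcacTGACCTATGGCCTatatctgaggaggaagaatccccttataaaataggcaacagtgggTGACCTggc
Slc27a2, chr2:126552774-126553023, plus strand: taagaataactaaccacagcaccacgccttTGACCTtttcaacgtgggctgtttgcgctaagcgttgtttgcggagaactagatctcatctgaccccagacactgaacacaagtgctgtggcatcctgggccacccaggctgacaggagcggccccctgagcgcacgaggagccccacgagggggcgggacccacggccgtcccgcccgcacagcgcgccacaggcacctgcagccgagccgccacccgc
Cd36, chr5:17835897-17836146, minus strand: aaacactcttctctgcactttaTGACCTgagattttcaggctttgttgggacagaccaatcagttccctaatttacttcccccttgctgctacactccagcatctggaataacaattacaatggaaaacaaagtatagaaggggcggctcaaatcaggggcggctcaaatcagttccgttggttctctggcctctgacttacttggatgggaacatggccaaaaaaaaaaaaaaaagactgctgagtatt
Pparg, the first of 3 starts, chr6:115360894-115361143, plus strand: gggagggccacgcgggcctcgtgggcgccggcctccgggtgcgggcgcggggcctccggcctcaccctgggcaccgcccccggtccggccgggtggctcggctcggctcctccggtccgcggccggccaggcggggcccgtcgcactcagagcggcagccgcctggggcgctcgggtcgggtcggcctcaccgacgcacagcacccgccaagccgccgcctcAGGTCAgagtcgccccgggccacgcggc
The half-site was in 5 of the 12 windows, from 4 of the 7 genes, beside 14.0% of the 32851 promoter windows in the table. The direct repeat was in the Fabp1 window alone among these, beginning 67 bases before the start and overlapping a half-site match, and in 27 windows (0.0822%) of the whole table. Because the half-site was chosen after the windows were seen, and the repeat after that of Fabp1, neither share measures how unusual a match is. Some genes also gave several windows, Pparg among them with 3 starts. The E2F core was in none of the 12, beside 3.92% of all windows. A match is a run of letters and not a measured binding site, and the genes that were higher and those that were lower both had half-site matches.

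Lpl encodes lipoprotein lipase, the enzyme that splits circulating triglyceride into fatty acids at the vessel wall; it is low in adult hepatocytes. Its brighter probe lies at chr8:71430267-71430326 (mm9, as are all probe positions here). Its signal was 2.46, 1.48, 1.06 and 1.09 in E2f1 knockout livers, 0.79, 0.63, 0.28 and 0.06 in E2f2-labelled livers, and 4.53, 4.53, 3.00 and 4.28 in wild type livers. All 8 knockout values lay below every wild type value, and the E2f2-labelled livers all lay below the E2f1 knockout livers. Lpl fell in both, with a change of -2.56 ± 0.38 in E2f1 knockout livers, which is 5.9-fold lower (adjusted p = 0.00168), and of -3.65 ± 0.38 in E2f2-labelled livers, which is 12.5-fold lower (adjusted p = 0.000141). The difference of E2f2-labelled from E2f1 knockout livers, -1.09 with a 95% interval of -1.91 to -0.26, did not pass (adjusted p = 0.25). A second Lpl probe gave -2.43 ± 0.34, -3.73 ± 0.34 and, between the knockouts, -1.29 (adjusted p = 0.0967). Within slides the change ran between -3.19 and -1.94 for the E2f1 knockout and between -4.23 and -2.72 for the E2f2 label. In such bulk tissue, fewer cells of a type and less RNA per cell cannot be told apart.

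Lpl is also made by adipocytes, macrophages and tumours, so markers of those cells are given beside it. Macrophage markers, counted below with Cd36, moved both ways. Clec4f, of Kupffer cells, rose by 1.87 ± 0.40 in E2f1 knockout livers and 1.40 ± 0.40 in E2f2-labelled livers. Itgax, which encodes CD11c, changed by -3.13 ± 0.54 in E2f1 knockout livers and -4.26 ± 0.54 in E2f2-labelled livers. Trem2, a receptor of lipid-associated macrophages, changed by -1.52 ± 0.49 and -2.65 ± 0.49. The part of macrophages in the Lpl result was not tested. Without E2f1 knockout replicate 1, the liver with adipocyte markers, the E2f1 change was -2.87 (adjusted p = 0.00101). In wild type livers Adipoq, Plin1 and Retn were above background on 0 of 4 arrays each, Lep and Slc2a4 on 1, Cfd on 3, and Car3 and Adrb3 on 4. The part of adipocytes in the Lpl result was not tested. The liver tumour markers were listed with earlier results of these data known, so their counts and medians only describe these genes. Of 10 tested, 8 fell in E2f1 knockout livers and 9 in E2f2-labelled ones, with median changes of -3.36 and -4.63 beside 0.13 and 0.18 over all genes. Among them Akr1c18, a steroid-converting reductase, changed by -4.99 ± 0.66 and -6.06 ± 0.66, and Ly6d, a surface antigen, by -4.93 ± 0.79 and -5.44 ± 0.79. Gpc3, an oncofetal proteoglycan of liver cancer, changed by -3.61 ± 1.15 and -5.35 ± 1.15, while Igf2 and Epcam were above background on no array. The summed signal of the 12 tumour markers was 13.1 to 35.8 times the array's 75th percentile in E2f1 knockout livers, 9.91 to 16.9 in E2f2-labelled livers, and 425.0, 497.0, 48.4 and 261.0 in wild type replicates 1 to 4. Wild type replicate 3, the lowest in this sum, was also the lowest wild type liver in Lpl. In Pparg, which fell in both knockout groups too, the same liver was the highest wild type liver, at 3.30 against 1.94 to 2.28. The part of tumour tissue in the result was not tested.

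Cd36 (probe at chr5:17288600-17288659), a membrane receptor that takes up long-chain fatty acids and oxidised lipoproteins, was lower in both knockout groups. Its signal was 0.59, -0.69, -0.95 and -0.54 in E2f1 knockout livers, -0.69, -0.34, -0.60 and -1.25 in E2f2-labelled livers, and 1.08, 0.88, 0.87 and 1.34 in wild type livers. No knockout value reached a wild type value, and E2f1 knockout replicate 1 came nearest. The change was -1.44 ± 0.30, or 2.71-fold lower, in E2f1 knockout livers (adjusted p = 0.00774) and -1.76 ± 0.30, or 3.39-fold lower, in E2f2-labelled livers (adjusted p = 0.00291). Without that E2f1 knockout replicate the first change was -1.77 (adjusted p = 0.0011). The change of E2f2-labelled from E2f1 knockout livers was -0.32 with a 95% interval of -0.98 to 0.34 (adjusted p = 0.803), and 0.01 without the same replicate.

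CD36 is also found on macrophages and endothelium. Of 15 macrophage and Kupffer cell markers tested, 2 rose and 3 fell in E2f1 knockout livers, and 2 rose and 5 fell in E2f2-labelled livers. Clec4f, given above, rose in both, and Itgax and Trem2 were among those that fell in both. Gpnmb, a marker of lipid-laden macrophages, was above background in wild type livers alone and was at least 2.6-fold lower in E2f1 knockout livers (adjusted p = 0.00246) and at least 2.9-fold lower in E2f2-labelled livers (adjusted p = 0.000356). These bounds set the bright group's mean against the dimmest signal called above background on the dim arrays, or the probe's own signal there if higher. Cd163, a scavenger receptor of resident macrophages, was above background in knockout livers alone, at least 3.5-fold higher in E2f1 knockout (adjusted p = 0.00453) and at least 3.2-fold higher in E2f2-labelled livers (adjusted p = 0.00513). The summed signal of 16 macrophage markers was 209.0 to 499.0, 128.0 to 545.0 and 96.5 to 333.0 times the 75th percentile in E2f1 knockout, E2f2-labelled and wild type livers, and so overlapped. Of 10 endothelial markers, 2 fell in E2f1 knockout livers and 3 in E2f2-labelled ones, and none rose. Lyve1, of sinusoidal and lymphatic endothelium, changed by -2.91 ± 0.27 and -2.80 ± 0.27. Tek, an angiopoietin receptor, changed by -1.24 ± 0.35 in E2f1 knockout livers (adjusted p = 0.0275), and Vwf, von Willebrand factor, by -1.30 ± 0.27 in E2f2-labelled livers (adjusted p = 0.00665). The endothelial sum ranged over 53.3 to 74.0 in E2f1 knockout, 63.9 to 75.7 in E2f2-labelled and 60.6 to 80.9 in wild type livers. The part of these cells in the Cd36 result was not tested.

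Slc27a2 (probe at chr2:126413890-126413949), the very-long-chain acyl-CoA synthetase and transport protein FATP2 of liver, rose in both knockout groups. Its signal was 8.05, 8.65, 8.87 and 8.49 in E2f1 knockout livers, 8.04, 8.15, 8.42 and 8.53 in E2f2-labelled livers, and 6.70, 6.77, 7.97 and 7.32 in wild type livers. Every knockout value lay above every wild type value, with wild type replicate 3 nearest to them. The change was 1.32 ± 0.27 in E2f1 knockout livers, a fold of 2.5 (adjusted p = 0.00709), and 1.09 ± 0.27 in E2f2-labelled livers, a fold of 2.14 (adjusted p = 0.0155). The second change did not pass without wild type replicate 2 (0.95, adjusted p = 0.0508) or without slide 1 (1.01, adjusted p = 0.0512). Between the knockouts the difference was -0.23 with a 95% interval of -0.83 to 0.37. The Slc27a2 probe lies on chromosome 2, as does that of E2f1, 28.0 Mb away.

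Slc27a1 (probe at chr8:74110256-74110315), the insulin-responsive transport protein FATP1, known best from muscle and fat, passed only in the E2f2 comparison. Its signal was -0.16, 0.33, -0.57 and 0.53 in E2f1 knockout livers, 0.56, 0.91, 0.71 and 1.36 in E2f2-labelled livers, and -0.33, -0.49, -0.52 and 0.22 in wild type livers. The E2f2-labelled livers lay above all 8 others, while E2f1 knockout and wild type livers overlapped. The change was 1.17 ± 0.27 in E2f2-labelled livers, a fold of 2.24 (adjusted p = 0.0102), and 0.31 in E2f1 knockout livers (adjusted p = 0.46). The difference of E2f2-labelled from E2f1 knockout livers was 0.85 ± 0.27 with a 95% interval of 0.28 to 1.43, higher in all 4 slides. It did not pass in the unblocked fit (adjusted p = 0.179) and passed with the slide as a block (adjusted p = 0.033).

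Vldlr (probe at chr19:27324050-27324109), a receptor for triglyceride-rich lipoproteins that is normally low in liver, did not pass in any comparison. Its signal was 1.18, 0.09, 1.11 and 1.40 in E2f1 knockout livers, -0.35, -0.06, -0.11 and 0.04 in E2f2-labelled livers, and -1.08, -0.81, 1.57 and 0.71 in wild type livers. The wild type livers spanned the whole range of the others, and the E2f2-labelled livers all lay below the E2f1 knockout livers. The change was 0.85 ± 0.50 in E2f1 knockout livers (adjusted p = 0.266) and -0.22 ± 0.50 in E2f2-labelled livers (adjusted p = 0.789). Without wild type replicate 3 these were 1.34 (adjusted p = 0.0356) and 0.27 (adjusted p = 0.665), and with array weights 1.27 (adjusted p = 0.0474) and 0.21 (adjusted p = 0.722). The second Vldlr probe was above background on 6 of 12 arrays, with changes of 1.16 ± 0.70 and -0.39 ± 0.70 that did not pass.

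Among the binding proteins, Fabp1 (probe at chr6:71154906-71154965), the main fatty acid carrier of hepatocytes, was higher in both knockout groups, though this call was the least stable of those made. Its signal was 10.19, 10.73, 10.49 and 10.35 in E2f1 knockout livers, 10.34, 10.20, 11.00 and 10.84 in E2f2-labelled livers, and 9.31, 9.25, 10.29 and 9.69 in wild type livers. Wild type replicate 3 lay among the knockout values and the other wild type livers lay below them all. The change was 0.81 ± 0.25 in E2f1 knockout livers (fold 1.75, adjusted p = 0.0411) and 0.96 ± 0.25 in E2f2-labelled livers (fold 1.95, adjusted p = 0.0189). It passed in 12 of 25 alternative settings in the first comparison and in 18 of 25 in the second. Quantile normalization gave 0.49 (adjusted p = 0.167) and 0.48 (adjusted p = 0.168). Single livers decided it too: in the E2f1 comparison the call was lost without wild type replicate 1 (0.70), 2 (0.68) or 4 (0.82) and without E2f1 knockout replicate 2 (0.71), 3 (0.79) or 4 (0.84). In the E2f2 comparison it was lost without wild type replicate 1 (0.85) or 2 (0.83) and without E2f2-labelled replicate 3 (0.83) or 4 (0.88).

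Fabp4 (probe at chr3:10204452-10204511), the adipocyte and macrophage carrier aP2, had the largest spread within a group. Its signal was 4.93, 1.84, 0.88 and 0.91 in E2f1 knockout livers, -0.31, 0.86, 0.86 and 0.13 in E2f2-labelled livers, and 4.48, 3.60, 3.81 and 3.65 in wild type livers. E2f1 knockout replicate 1 exceeded every wild type liver, whereas the other 7 knockout livers lay below all of them. Fabp4 fell by 3.50 ± 0.72, which is 11.3-fold lower, in E2f2-labelled livers (adjusted p = 0.00667). In E2f1 knockout livers the change of -1.75 ± 0.72 did not pass (adjusted p = 0.11), and without replicate 1 it was -2.68 (adjusted p = 0.00144). The difference of E2f2-labelled from E2f1 knockout livers, -1.76 with a 95% interval of -3.33 to -0.18 (adjusted p = 0.358), was -0.83 without that replicate.

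Summed over Adipoq, Lep, Retn, Cfd, Plin1 and Slc2a4, the adipocyte signal was 24.9 times the array's 75th percentile in E2f1 knockout replicate 1. It was 0.407 to 0.497 in the other E2f1 knockout livers, 0.34 to 0.544 in E2f2-labelled livers and 0.28 to 0.809 in wild type livers. These sums mix signals that were and were not well above background. In wild type livers Adipoq, Retn and Plin1 were above it on 0 of 4 arrays, Lep and Slc2a4 on 1, and Cfd on 3. In E2f2-labelled livers Adipoq and Plin1 were above it on 0 arrays, Lep and Retn on 1, Cfd on 2 and Slc2a4 on 3. The part of adipocytes in the Fabp4 values was not tested. Of the 8 listed markers 4 could be tested. None passed in the E2f1 comparison, and Adrb3, a beta-adrenergic receptor, passed in the E2f2 comparison (1.45 ± 0.36, adjusted p = 0.0141). Car3, which liver also expresses, made up most of the sum over all 8, which was 435.0 to 783.0, 97.8 to 625.0 and 23.5 to 733.0 in E2f1 knockout, E2f2-labelled and wild type livers.

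Fabp5 (probe at chr3:10016185-10016244), the epidermal carrier also found in macrophages and many tumours, did not pass against wild type. Its signal was 5.25, 5.42, 4.06 and 3.46 in E2f1 knockout livers, 5.72, 6.27, 5.24 and 5.67 in E2f2-labelled livers, and 7.58, 6.88, 4.24 and 6.47 in wild type livers. The wild type range covered much of both knockout ranges because replicate 3 was low. The change was -1.75 ± 0.63 in E2f1 knockout livers (adjusted p = 0.0703) and -0.57 ± 0.63 in E2f2-labelled livers (adjusted p = 0.55). The first passed with the slide as a block (adjusted p = 0.0225), with array weights (-2.05, adjusted p = 0.0148) and without wild type replicate 3 (-2.43, adjusted p = 0.00341). Its difference of E2f2-labelled from E2f1 knockout livers was 1.18, higher in all 4 slides, with a 95% interval of -0.20 to 2.56 (adjusted p = 0.541). A pseudogene, Fabp5l2, is annotated, and the 2 probes most like Fabp5 across arrays carry no gene name, so its signal may include near-identical copies. Fabp4 and Fabp5 lie 188.0 kb apart on chromosome 3. Fabp2 (probe at chr3:122602276-122602335), the intestinal carrier, had signals of 4.91 to 5.47 in E2f1 knockout, 5.03 to 5.83 in E2f2-labelled and 5.30 to 6.07 in wild type livers, which overlapped. Its changes of -0.38 (adjusted p = 0.245) and -0.24 (adjusted p = 0.46) did not pass, though the first passed after quantile normalization (-0.66, adjusted p = 0.0373).

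Pparg (probe at chr6:115440213-115440272), the nuclear receptor that drives fat storage and is induced in fatty liver, fell in both knockout groups. Its signal was 1.79, 0.48, 0.58 and 0.48 in E2f1 knockout livers, 1.06, 0.95, 0.58 and 0.88 in E2f2-labelled livers, and 2.24, 2.28, 3.30 and 1.94 in wild type livers. All knockout values lay below all wild type values, and E2f1 knockout replicate 1, the liver with adipocyte markers, was nearest. The change was -1.61 ± 0.33, or 3.05-fold lower, in E2f1 knockout livers (adjusted p = 0.00709) and -1.57 ± 0.33, or 2.97-fold lower, in E2f2-labelled livers (adjusted p = 0.00736). Without that replicate the E2f1 knockout change was -1.93 (adjusted p = 0.0023). The difference between the knockouts was 0.04, with a 95% interval of -0.69 to 0.76.

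**Figure D3:**
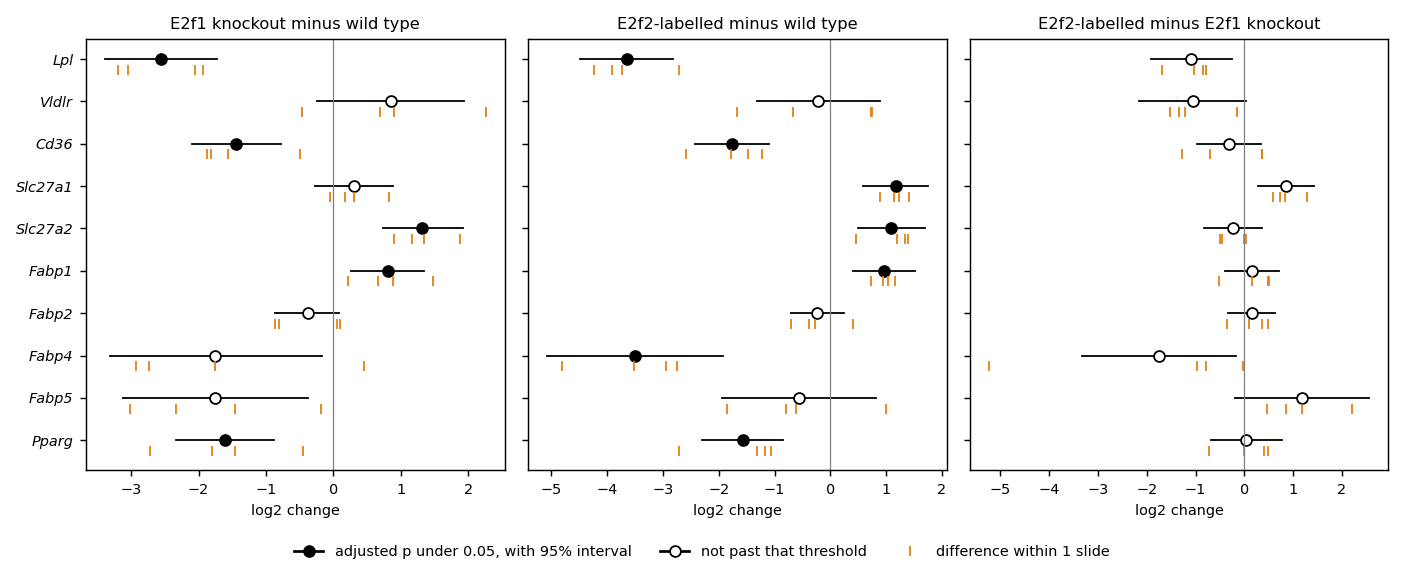
Log2 change of each gene in 3 comparisons, with its 95% interval (line), filled where the adjusted p was under 0.05, and the difference within each of the 4 slides (orange ticks). Lpl has the lowest values in both comparisons with wild type, from -2.56 to -3.65, and no gene is filled between the knockouts.

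**Figure D4:**
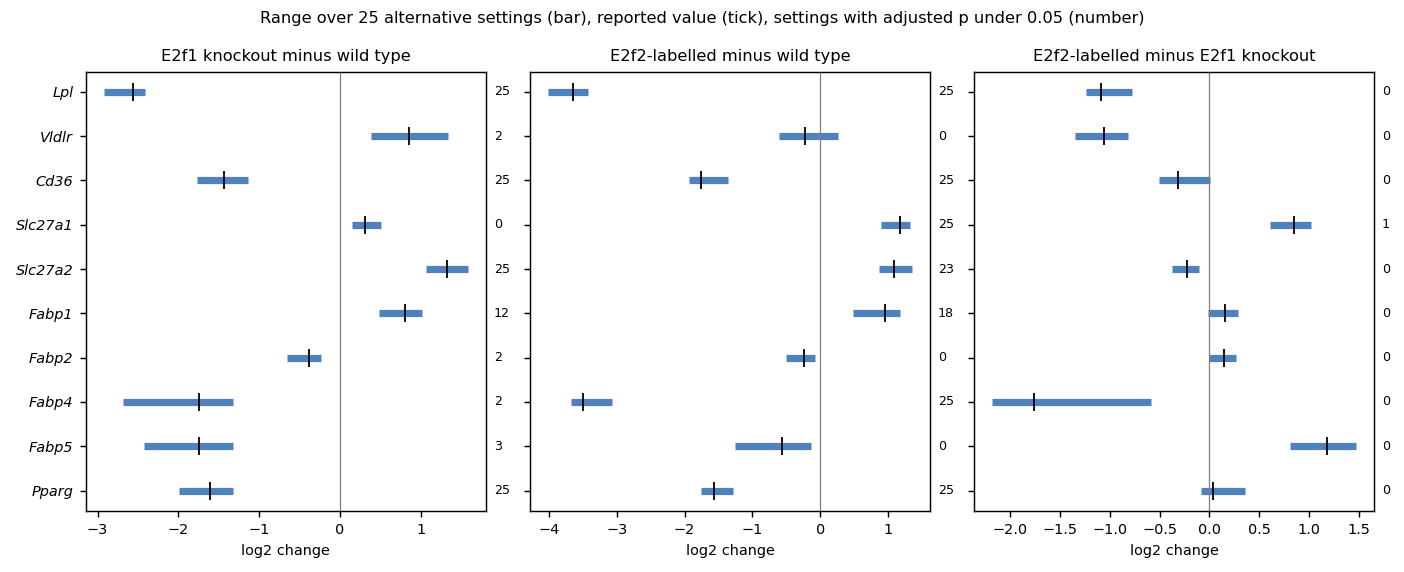
Range of the log2 change of each gene over 25 alternative settings (bar), the reported value (tick) and, right of each panel, the number of settings in which the adjusted p was under 0.05. Lpl, Cd36 and Pparg passed in 25 of 25 in both comparisons with wild type, and Fabp1 in 12 and 18.

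The genes around these 10 were read from 6 pathway lists, as counts beside the 20.6% and 22.0% of all genes called. Of 9 other fatty acid transporters and binding proteins tested, 4 rose and none fell in each comparison, with medians of 0.88 in E2f1 knockout livers and 0.68 in E2f2-labelled ones. Slc27a5, the liver bile acid and fatty acyl-CoA synthetase FATP5, rose by 1.28 ± 0.30 in each, and Got2, a mitochondrial aminotransferase once named plasma membrane FABP, by 0.87 ± 0.20 and 0.68 ± 0.20. Mfsd2a, a transporter of lysophosphatidylcholine that carries long-chain fatty acids, rose by 2.25 ± 0.51 and 2.07 ± 0.51, and Acbd5, a peroxisomal acyl-CoA binding protein, by 0.88 ± 0.18 and 0.85 ± 0.18. Slc27a6 and Fabp6 were above background on no array.

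Of 10 acyl-CoA synthetases and thioesterases tested, 5 rose and 1 fell in each comparison, with medians of 0.81 and 0.56. Acsl1, the main long-chain synthetase of liver, rose by 1.49 ± 0.33 in E2f1 knockout livers and 1.36 ± 0.33 in E2f2-labelled ones. Acsm1 rose by 1.63 ± 0.36 and 1.68 ± 0.36 and Acsm5 by 1.83 ± 0.41 and 1.50 ± 0.41, both mitochondrial medium-chain synthetases. The gene that fell was Acsl3, a synthetase of lipid droplets, in E2f1 knockout livers (-1.57 ± 0.38, adjusted p = 0.0133; -0.57, adjusted p = 0.299 in E2f2-labelled livers), and Acsl5 in E2f2-labelled livers (-0.97 ± 0.24, adjusted p = 0.0148). Acsl6 was above background on no array.

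Of 12 partners and inhibitors of lipoprotein lipase, 3 rose and 2 fell in E2f1 knockout livers and 2 rose and 2 fell in E2f2-labelled livers, with medians of 0.21 and 0.09. Angptl4, a secreted inhibitor of the enzyme, rose by 1.65 ± 0.35 and 1.13 ± 0.35, and Apoa5, an apolipoprotein that favours its action, by 0.97 ± 0.25 and 1.77 ± 0.25. Apoc2, its required cofactor, changed by -1.20 ± 0.33 and -1.61 ± 0.33. Pcsk6, a proprotein convertase, rose by 1.08 ± 0.15 in E2f1 knockout livers, and was the 1 gene of this list to differ between the knockouts (-0.67 ± 0.15, adjusted p = 0.0453). Of 11 other lipases and lipoprotein receptors, 3 rose and none fell in E2f1 knockout livers, and 3 rose and 2 fell in E2f2-labelled livers, with medians of 0.25 and 0.29. Mgll, which splits monoglyceride, rose by 1.43 ± 0.31 and 1.48 ± 0.31, and Pnpla2, the adipose triglyceride lipase, by 0.72 ± 0.16 and 0.56 ± 0.16. Lipc, hepatic lipase, rose in E2f1 knockout livers (1.30 ± 0.34, adjusted p = 0.0195), and Msr1, a macrophage scavenger receptor, fell in E2f2-labelled livers (-0.98 ± 0.25, adjusted p = 0.0171). Lrp8 was above background on no array.

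A list of 14 genes held PPAR and RXR receptors other than Pparg, their coregulators and the other nuclear receptors Nr1h3 and Nr1i2. Of these, 5 rose in E2f1 knockout livers and 4 in E2f2-labelled livers, and none fell, with medians of 0.38 and 0.39. Nr1i2 was among those that rose in E2f1 knockout livers (1.07 ± 0.20, adjusted p = 0.00439), and Nr1h3 did not pass in either comparison. Ppara, the PPAR of fatty acid oxidation, rose by 1.26 ± 0.27 and 0.91 ± 0.27, while Pparg fell in the same livers. Ppargc1b, a coactivator, rose by 2.18 ± 0.32 and 1.19 ± 0.32. Med1, a Mediator subunit that binds PPARG, rose in E2f1 knockout livers (2.52 ± 0.48, adjusted p = 0.00484). A further 13 genes were listed, by tissue knowledge, as targets of PPARG in fatty liver. Of these, 6 rose and none fell in E2f1 knockout livers, and 2 rose and 1 fell in E2f2-labelled livers, with medians of 0.58 and 0.19. The gene that fell was Cidec, which enlarges fat droplets (-3.19 ± 0.78, adjusted p = 0.0139), with -1.84 ± 0.78 in E2f1 knockout livers (adjusted p = 0.118). Those that rose in E2f1 knockout livers include Plin5, a droplet coat protein (1.37 ± 0.32), Fitm1, a droplet-forming membrane protein (2.37 ± 0.74), and Acaa1b, a peroxisomal thiolase (2.06 ± 0.53). Which PPAR, if any, acts on the listed genes in these livers was not tested. The counts in E2f2-labelled livers are near the 14.4% and 7.59% of all genes called higher and lower. Cidea, a relative of Cidec on fat droplets, had the lowest value of the list there, -3.41, and did not pass (adjusted p = 0.093). E2f1 knockout livers spread widely in both, from -1.88 to 2.00 in Cidec and from -3.33 to 4.84 in Cidea. That group holds the liver with adipocyte markers, whose part in these values was not tested.

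**Figure D5:**
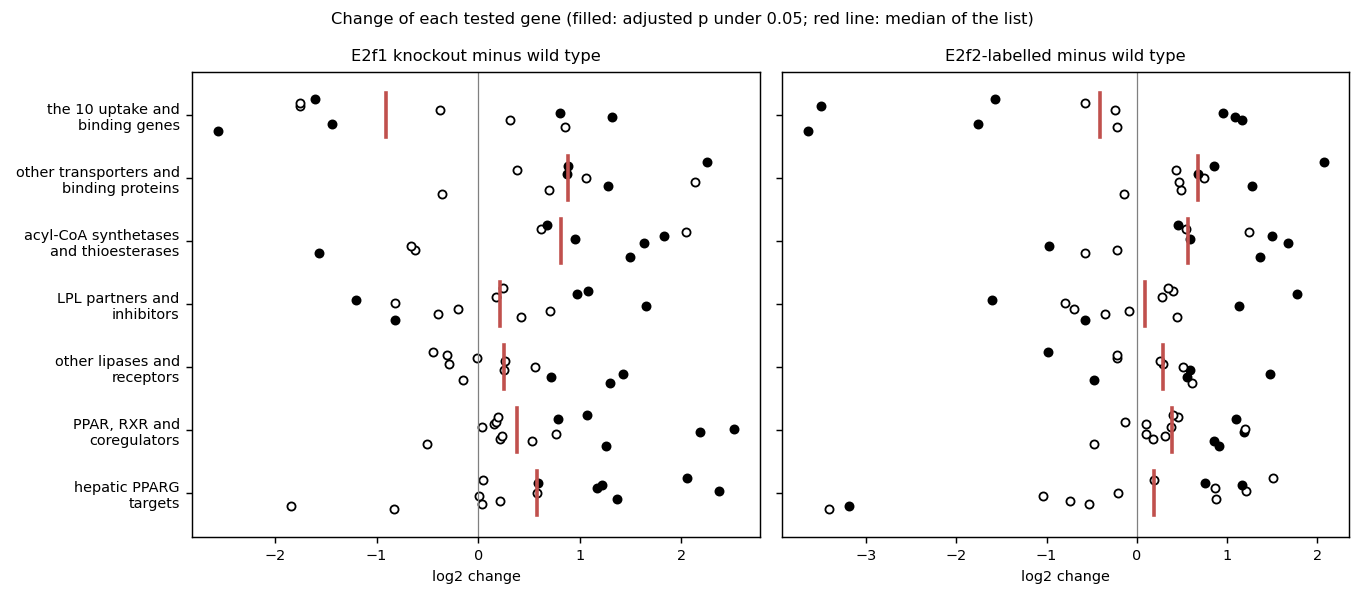
Log2 change of each tested gene against wild type, for the 10 genes and for 6 pathway lists, in E2f1 knockout (left) and E2f2-labelled livers (right), filled where the adjusted p was under 0.05, with the list median in red. Median changes of the other transporters, 0.88 and 0.68, lie above 0, while the 10 genes spread over both sides, from -2.56 to 1.32 and from -3.65 to 1.17.

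For each member that passed, the 2 genes closest to it over the 12 arrays were found by the mean absolute difference of values scaled to unit SD, for which all genes had medians between 0.97 and 1.26. Closest to Lpl were Grrp1 and Scd2, a desaturase, both at 0.17. Cd36 was closest to Cx3cr1, a chemokine receptor, at 0.22 and to Ly6c1, a surface antigen of endothelium and monocytes, at 0.23. Slc27a2 was closest to Cyp2d13 at 0.10 and Mettl7b at 0.12, and Fabp1 to Zkscan3 at 0.12 and BC025829 at 0.14. Fabp4 was closest to Gm3776 at 0.25 and to Col1a2, a collagen chain, at 0.26, Pparg to Pitpnm1 at 0.22 and 9630010G10Rik at 0.24, and Slc27a1 to 1700016K05Rik at 0.21 and to a probe with no gene name at 0.28. Arrays of a group share genotype and array position, so this likeness is a description of these livers.

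Counts over all genes depended on the scaling of the arrays. Of the 4241 genes called in E2f1 knockout livers 64.0% were higher, and of the 4524 in E2f2-labelled livers 65.5%. After quantile normalization the shares were 50.4% and 49.5%, and with the percentile taken over probes detected on all arrays they were 46.6% and 41.9%. The median change of all genes was 0.13 and 0.18 under the reported scaling and -0.03 and 0.00 with that percentile. Relative to those medians, Lpl, Cd36, Fabp4 and Pparg lay lower and Slc27a2 higher under either.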

How the data were processed

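Whole-liver RNA of 12 mice (50 ng per array) was hybridised to 12 Agilent 1-colour arrays. Per the file headers, the authors' scanner files hold background-subtracted, detrended intensity values from Agilent Feature Extraction 10.7.3.1, with probe positions on mm9. A deposited table of log2 values, with near-equal distributions in all columns, was used as an alternative; how it was normalized is not stated in the sources used here, its scale and direction were found by comparison with the scanner values (lowest correlation 0.9981), and its column medians were 3.838 to 3.839.

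Control and outlier spots were left out, spots of a probe were averaged, and the log2 signal minus each array's 75th percentile (118.9 to 236.3 intensity units) was used. Between 44.8% and 54.5% of probes were well above background on an array; the number of arrays limits the precision. Genes were tested through their brightest probe among those well above background on 3 or more of the 4 arrays in some group. limma 3.58.1 (R 4.3.3) fitted all 12 arrays in 3 groups with lmFit and eBayes, and p-values were Benjamini-Hochberg adjusted over 20576 genes, of which 99 had a missing value on some array; the procedure was tested on simulated data. Probe names came from RefSeq by accession for 28026 probes, by symbol for 3418 and by synonym for 295, and from the files for 23942. Labels do not name separate litters or cages for the mice, so p-values measure the spread between these samples.

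Members and gene lists (6 pathway lists and 7 marker lists, by tissue knowledge) were chosen with earlier results of these data known. Named genes are all members, the up to 4 genes of a pathway list and up to 3 of a marker list with the largest changes among those called, undetected markers, and the 2 genes most like each member. Acsl5, Cidea, Nr1h3, Nr1i2, Clec4f, Trem2, Alb, Apoa1, Apob, Hnf4a, Krt19, Sox9 and the single adipocyte markers other than Adrb3 were named after their values were seen. One gene that this rule selects is not reported here. Replicate numbers match slides and scan runs: of 12 same-number pairs, 10 had deviations that correlated above 0.1 (0.04 to 0.42), and 11 of 12 arrays correlated best with their own number. Alternatives were normexp, quantile normalization, median centring, other percentiles, the deposited table, other filters and probe rules, the slide as a block, array weights, 2-group fits, and leaving out each array or slide 1.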

Additional observations from a re-analysis of the deposited data

Results flagged for a closer look

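In 30 groups of 4 livers (10 genes in 3 groups), the gap between an extreme liver and its nearest neighbour, divided by the group's range, was above Dixon's critical value at the 95% level for 2 groups; chance gives about 1 in 20. Pparg in E2f1 knockout replicate 1 stood at 1.79, against 0.48 to 0.58 in the other 3 livers of that group, a ratio of 0.92. The same liver had the highest signal of all 12 in 6 of 8 adipocyte markers, Adipoq at 1.37 among them, but not in Car3 or Lep, and the part of that in the Pparg value was not tested. Lpl in wild type replicate 3 stood at 3.00, against 4.28 to 4.53 in the other 3 wild type livers, a ratio of 0.837. That liver also had the lowest tumour marker sum of its group, 48.4 against 261.0 to 497.0 times the array's 75th percentile. Its Pparg signal, 3.30, was the highest of the group.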

How the results depend on the processing

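Over 25 alternatives, 708 of 750 member values kept their direction and side of the threshold, 22 lost the call, 10 gained it and 10 turned sign, and 867 of 975 list counts stayed within 1.5 times. Leaving out slide 1 was chosen after seeing the data. Genes called in the E2f1 comparison (4241) numbered 2785 with no filter on dim probes, 2626 without slide 1, and 2566 (without wild type replicate 2) to 4886 with 1 array left out; 2646 without E2f1 knockout replicate 3. In the E2f2 comparison (4524) they numbered 2928 with median centring, 2994 with no filter, 2611 without slide 1, and 2756 (without wild type replicate 2) to 5277 with 1 array left out. Between the knockouts (334) they numbered 214 with normexp, 208 with probes above background on all 12 arrays, 519 with array weights and 182 without slide 1. With slide (replicate number) as a block they were 5468, 6229 and 432. The block brought 1 member past the threshold between the knockouts, Slc27a1 (adjusted p = 0.033), and Fabp5 in the E2f1 comparison, and changed no other member's call. The Vldlr change in E2f2-labelled livers turned to 0.21 with array weights and ranged from -0.61 to 0.27 with 1 array left out. Between the knockouts, Cd36 ranged from -0.51 to 0.01, Fabp1 was -0.00 after quantile normalization and -0.01 in the deposited table, and Pparg was -0.02 with normexp and ranged from -0.08 to 0.36. The causes were not tested. Signals near background limit Gpnmb, Cd163 and the adipocyte markers.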

Other observations

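Of 10 hepatocyte markers tested, 4 rose and none fell in each comparison, beside 13.2% and 14.4% of all genes called higher. In each, 6 did not pass, among them Alb, albumin, with 0.09 in E2f1 knockout livers and -0.36 in E2f2-labelled ones. Apoa1, with -0.33 and -0.59, did not pass either. Hnf4a rose by 0.68 ± 0.14 and 0.78 ± 0.14. Apob passed only in E2f2-labelled livers (0.40 ± 0.13, adjusted p = 0.0467), with 0.33 in E2f1 knockout livers (adjusted p = 0.0977). Cyp2e1, a cytochrome of central hepatocytes, rose by 2.10 ± 0.45 in E2f1 knockout livers and 1.90 ± 0.45 in E2f2-labelled ones. Tat, a tyrosine aminotransferase, rose by 1.51 ± 0.30 and 1.20 ± 0.30, and Cps1, of the urea cycle, rose by 1.12 ± 0.24 in E2f1 knockout livers, with 0.47 in E2f2-labelled livers (adjusted p = 0.168). Their summed signal was 7710.0 to 10600.0, 6640.0 to 9570.0 and 5830.0 to 8390.0 times the array's 75th percentile in E2f1 knockout, E2f2-labelled and wild type livers. These ranges overlapped, and the part of hepatocyte content in the Slc27a2 and Fabp1 results was not tested.

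Of 4 small intestine and cholangiocyte markers tested, 2 fell in each comparison: Apoa4, an apolipoprotein of intestine and fatty liver (-4.60 ± 0.47 and -4.24 ± 0.47), and Spp1, osteopontin (-2.30 ± 0.72 and -2.40 ± 0.72). Spp1 is also on the tumour marker list. The cholangiocyte markers Krt19 (0.89 and 0.41) and Sox9 (-0.55 and -0.19) did not pass in either comparison. Cdx2 and Epcam were above background on no array. No skeletal muscle marker of 7 was bright enough to test, and Myh1 and Ckm were above background on no array. The muscle sum was 0.753 in E2f1 knockout replicate 1, 0.225 to 0.518 in the other E2f1 knockout livers, 0.196 to 0.42 in E2f2-labelled livers and 0.191 to 0.225 in wild type livers.

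In 5 of the 10 genes (Lpl, Cd36, Slc27a2, Fabp1 and Fabp5), wild type replicate 3 was the wild type liver nearest to the mean of the 8 knockout livers. The share over all genes was not counted. In Cd36 it was barely the nearest, at 0.87 against 0.88 for the next, and in Fabp5 it lay below the knockout mean (4.24 against 5.14). In Pparg it was the farthest, at 3.30 against a knockout mean of 0.85. Without wild type replicate 3, 7 members passed in the E2f1 comparison and 7 in the E2f2 comparison, beside 4886 and 5277 of all 20576 genes. Without E2f1 knockout replicate 1 the numbers were 6 and 7, beside 3942 and 4234 of all genes. In the reported fit they were 5 and 7, beside 4241 and 4524.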
